A study of Arabidopsis thaliana with 4 samples.

Results

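A set of 9 late embryogenesis abundant (LEA) genes of Arabidopsis thaliana was followed across a wild type and a pair of mutants in seedling RNA sequencing. They are EM1, EM6, a dehydrin that the annotation calls LEA, LEA7, ECP63, AT3G15670, LEA4-5, M17 and M10. They were taken as a given list, chosen with earlier results of these data known, and matched by locus identifier. All 9 were found among the 33341 genes counted. LEA proteins are small, hydrophilic and largely unstructured. They are known for accumulating in the embryo late in seed maturation, when the seed dries, and for protecting cell contents during water loss. Abscisic acid and the transcription factors ABI3 and ABI5 are known activators of many seed LEA genes, whose transcripts are normally low in unstressed seedlings.

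The samples were whole seedlings 12 days old, grown on MS medium with 1% sucrose at 22 °C under 16 h light and 8 h dark. The groups were atprmt3, a mutant named for the protein arginine methyltransferase gene PRMT3 (1 library), rps2a2b, a mutant named for the ribosomal protein genes RPS2A and RPS2B (1 library), and the wild type Col (2 libraries). The sample titles add "-2" to atprmt3 and "-1" to rps2a2b, and whether these are allele or sample numbers is not given in the labels. The study is titled for an interaction of PRMT3 with RPS2B in ribosome assembly, so each mutant is set against Col and the mutants against each other.

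Total gene counts were 18650053 in atprmt3, 15194770 in rps2a2b and 15646735 and 15637192 in Col. The Col libraries differed by no more than counting noise (chi-square per gene 0.989 over 20569 genes) and were counted as 1 sample. Nothing in the labels says that they came from separate cultures. Each genotype is therefore a single sample, no difference below has a replicate check, and no p-value is given for a gene. PRMT3 itself had 132 counts in atprmt3 and 315 in rps2a2b, against 237 and 254 in Col, so atprmt3 had the lowest level (6.99 CPM, against 16.2 CPM in Col, where CPM is the count scaled to a common library size). Where the mutation lies within PRMT3 is not given in the labels. RPS2A and RPS2B were not matched to a locus here, and the rps2a2b label was not checked on its own genes. In bulk samples, fewer cells of a type and less RNA per cell cannot be told apart.

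The 9 transcripts were nearly silent in Col, and together they were far more abundant in both mutants. Summed over the 9, the atprmt3 library reached 141 CPM, with a 95% counting interval of 136 to 146. The rps2a2b library reached 664 CPM (652 to 677), against 6.68 CPM for the pooled Col libraries (5.79 to 7.67). The sum was 21.1-fold higher in atprmt3 than in Col (18.3 to 24.4), 99.4-fold higher in rps2a2b than in Col (86.5 to 115) and 4.72-fold higher in rps2a2b than in atprmt3 (4.52 to 4.92). The Col libraries contributed 113 and 89 of the summed counts, against 2659 in the atprmt3 library and 10687 in the rps2a2b library. Intervals here and below cover counting error only, and CPM is scaled by edgeR's trimmed-mean factors.

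The 9 genes lie on chromosomes 1 (1 gene), 2 (5 genes), 3 (2 genes) and 5 (1 gene), and M17 and M10 are neighbours. Annotated genes have 2 exons in 7 cases and 3 exons in LEA7 and ECP63, and coding lengths between 279 bases (EM6) and 1347 bases (ECP63). Because many seed LEA genes are controlled through their promoters, the 250 bases before 4 annotated starts are shown from RefSeq TAIR10.1, 5′ to 3′ on the gene's strand. EM1 (chr3:19214472-19214721, plus strand) had the highest ratio to Col, and EM6 (chr2:16780369-16780618, minus) had the smallest in atprmt3. LEA (chr2:9207126-9207375, minus) holds both kinds of motif searched for seed genes, and M17 (chr2:17206202-17206451, plus) holds neither. Capitals mark the abscisic acid response element core (ABRE, searched as ACGTGGC or ACGTGTC) and the RY element (searched as CATGCA), on either strand.
EM1: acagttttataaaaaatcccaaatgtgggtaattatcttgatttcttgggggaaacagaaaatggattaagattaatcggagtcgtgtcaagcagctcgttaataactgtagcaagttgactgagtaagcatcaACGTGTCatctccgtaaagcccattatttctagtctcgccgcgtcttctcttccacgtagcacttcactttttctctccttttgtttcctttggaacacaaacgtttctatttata
EM6: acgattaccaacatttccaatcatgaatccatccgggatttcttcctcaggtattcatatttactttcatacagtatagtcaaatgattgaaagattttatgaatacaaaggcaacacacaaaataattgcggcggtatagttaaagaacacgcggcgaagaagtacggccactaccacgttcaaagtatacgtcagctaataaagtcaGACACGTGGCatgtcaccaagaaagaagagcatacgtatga
LEA: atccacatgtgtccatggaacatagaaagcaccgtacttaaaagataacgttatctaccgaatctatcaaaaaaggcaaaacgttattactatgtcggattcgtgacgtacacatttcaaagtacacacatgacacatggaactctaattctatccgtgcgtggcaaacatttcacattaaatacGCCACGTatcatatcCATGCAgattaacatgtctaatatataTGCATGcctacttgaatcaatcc
M17: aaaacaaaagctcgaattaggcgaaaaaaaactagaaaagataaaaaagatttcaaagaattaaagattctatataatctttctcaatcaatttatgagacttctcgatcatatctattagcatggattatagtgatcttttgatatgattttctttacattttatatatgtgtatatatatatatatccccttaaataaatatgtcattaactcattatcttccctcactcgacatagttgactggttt

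An ABRE was found in 8 of the 9 windows, and M17 was the exception. Of all 27438 protein-coding windows of this length, 6.39% held one, and 19 of 41 other LEA family genes did. The match in EM1 lies 116 to 110 bases before the start. In EM6 a copy of each form overlaps the other between bases 41 and 32, together with the G-box CACGTG. In LEA the match lies at bases 65 to 59, and RY matches follow at bases 50 to 45 and 23 to 18. The RY element was found in 2 of the 9, LEA and ECP63, and in 8.43% of all windows. The G-box was found in 5 of the 9 and in 6.49% of all windows, and in EM6, LEA7, ECP63 and M10 it overlaps an ABRE. The drought response core CCGAC was found in 5 of the 9 and in 12.0% of all windows. GATAA, searched for comparison, was found in 6 of the 9 and in 54.9% of all windows. A match describes the letters only, and whether a factor binds there was not measured.

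**Figure D1:**
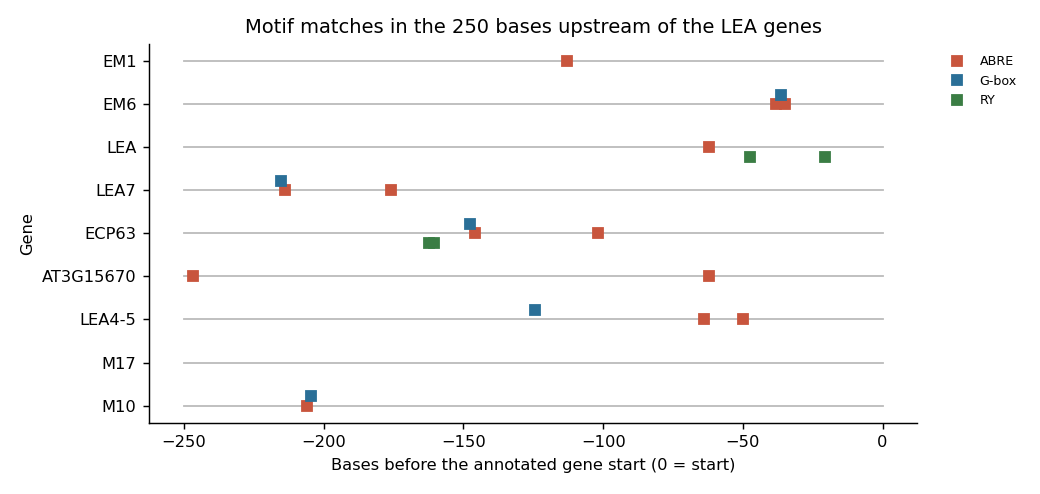
Position of ABRE (red), G-box (blue) and RY (green) matches in the 250 bases before each LEA gene's annotated start (x axis, bases from the start). Each gene has a row (y axis), and colours are offset vertically so that overlapping matches stay visible. M17 has no match of these 3 kinds, and in EM6 the matches overlap.

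In TAIR10.1 coordinates, EM1 (AT3G51810, chr3:19214722-19215831, plus) and EM6 (AT2G40170, chr2:16779552-16780368, minus, which RefSeq calls GEA6) encode the Em proteins, which accumulate in the maturing embryo under ABI3 and ABI5. EM1 had 282 counts in atprmt3 and 1792 in rps2a2b, against 1 and 3 in the Col libraries. Its level was 113-fold higher in atprmt3 than in Col (43.6 to 417) and 842-fold higher in rps2a2b than in Col (328 to 3093), and both intervals are wide at so few Col counts. Among genes that passed the filter, ranked by ratio to Col, EM1 stood 5th highest of 20894 in atprmt3 and first of 20906 in rps2a2b. Genes with 0 Col counts were ranked on a floor of 3 counts, a lower bound, so these ranks are approximate. EM1 itself passed the filter only through a mutant, so its high rank is a description and not a test. EM6 had 31 counts in atprmt3 and 219 in rps2a2b, against 15 and 10 in the Col libraries. It was 16.5-fold higher in rps2a2b than in Col (10.9 to 26.0) and only 1.99-fold higher in atprmt3 (1.13 to 3.51), where it stood just under the 2-fold line. Per kb of exon, EM1 exceeded EM6 by 7.08 times in atprmt3 and 6.37 times in rps2a2b, whereas in Col its level was 0.125 times that of EM6. Both genes had larger values in rps2a2b than in atprmt3, by 7.46-fold for EM1 (6.58 to 8.49) and 8.29-fold for EM6 (5.68 to 12.5).

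The dehydrin LEA (AT2G21490, chr2:9205990-9207125, minus) belongs to a group of LEA proteins that bind membranes and water during drying. It had 150 counts in atprmt3 and 792 in rps2a2b, against 2 and 3 in the Col libraries. The level was 48.0-fold higher in atprmt3 than in Col (20.1 to 150.1) and 298-fold higher in rps2a2b (127 to 919). Both mutant libraries lay far above both Col libraries for this gene. It ranked 19th by ratio in atprmt3 and 6th in rps2a2b among the genes that passed the filter. The limits given for EM1 hold here too, because LEA also passed the filter only through a mutant.

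LEA7 (AT1G52690, chr1:19619724-19621534, plus), ECP63 (AT2G36640, chr2:15356830-15358619, minus) and AT3G15670 (chr3:5309886-5310988, minus) share the repeated helical motif of the LEA_4 class, and LEA7 is known to protect enzymes during drying and freezing. AT3G15670 was the most abundant per kb of exon in each mutant. It had 860 counts in atprmt3 and 3544 in rps2a2b, against 19 and 14 in Col. That is 41.7-fold higher in atprmt3 than in Col (29.5 to 61.0) and 202-fold higher in rps2a2b (143 to 294). LEA7 had 317 and 1436 counts in atprmt3 and rps2a2b, against 21 and 20 in Col, or 12.4-fold (8.92 to 17.6) and 65.8-fold (48.3 to 92.1) higher. ECP63 had 355 and 1484 counts in atprmt3 and rps2a2b, against 21 and 18 in Col, or 14.6-fold (10.5 to 20.8) and 71.5-fold (52.1 to 101) higher. The ratios of LEA7 and ECP63 to Col have overlapping intervals in each mutant. A gene annotated opposite LEA7, AT1G52695, had 0 counts in every library.

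LEA4-5 (AT5G06760, chr5:2089445-2090430, minus) encodes a LEA protein of another class that also responds to water deficit in vegetative tissue. It had 333 counts in atprmt3 and 942 in rps2a2b, against 24 and 14 in Col. It was 14.0-fold higher in atprmt3 (10.01 to 20.2) and 46.6-fold higher in rps2a2b (33.7 to 66.2). The difference between the mutants, 3.32-fold (2.93 to 3.77), was smaller than for the genes above, whose intervals lie higher.

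M17 (AT2G41260, chr2:17206452-17207698, plus) and M10 (AT2G41280, chr2:17209697-17210423, plus) are neighbours on chromosome 2 named from late embryo transcripts. M17 had 324 counts in atprmt3 and 469 in rps2a2b, against 10 and 6 in Col, or 32.4-fold (19.7 to 57.4) and 55.1-fold (33.6 to 97.2) higher. Its level in rps2a2b was only 1.70 times that in atprmt3 (1.47 to 1.96), the smallest ratio among the 8 genes that passed the filter on low counts. Internal repeats leave 55.5% of its 50-base positions occurring at a single place in the genome, against 100% in the other 8. M10 had 7 and 9 counts in atprmt3 and rps2a2b, against 0 and 1 in Col. It did not pass the filter, and its ratios of 11.2 (1.44 to 505) and 16.9 (2.34 to 741) are hardly bounded.

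**Figure D2:**
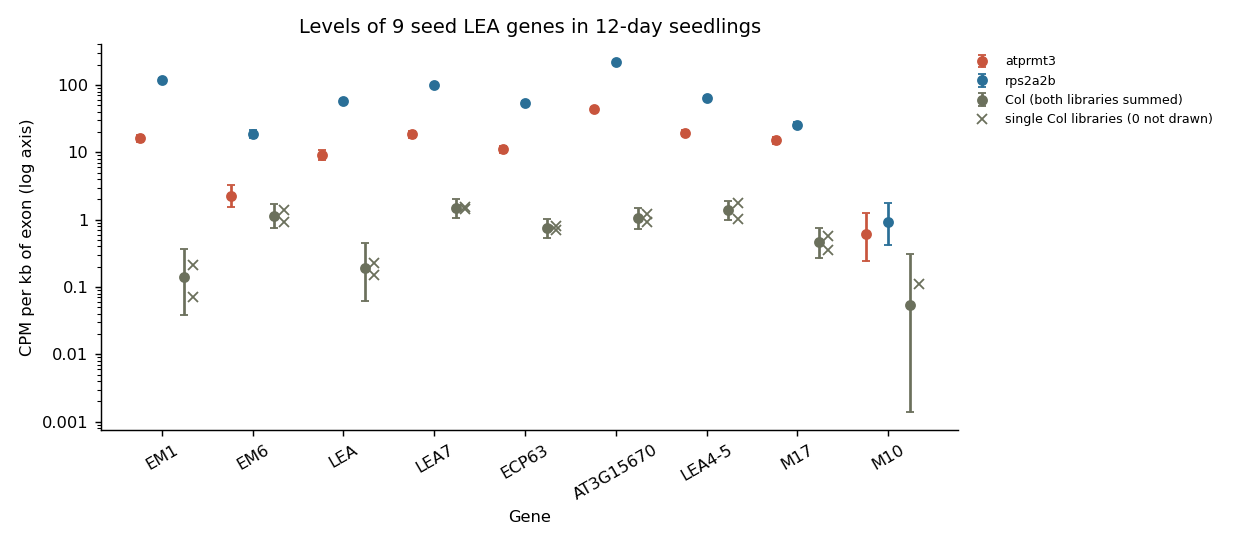
Level of each LEA gene (CPM per kb of exon, log axis) in atprmt3, rps2a2b and Col, with 95% counting intervals. Crosses are the single Col libraries, and a library at 0 is not drawn. Each rps2a2b point lies above its Col point, and the atprmt3 points lie between them.

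At least a 2-fold higher level than Col was seen for 8 of the 9 in atprmt3, where 8.96% of the 20937 genes that passed the filter were so, and for 9 of 9 in rps2a2b, where 9.97% were. M10 is counted here but is not among those filtered genes, and without it the counts are 7 of 8 in atprmt3 and 8 of 8 in rps2a2b. Of the 9, 0 were 2-fold lower in either mutant, where 6.21% and 6.19% of genes were in atprmt3 and rps2a2b. A 4-fold higher level was reached by 8 of the 9 in atprmt3, beside 3.58% of genes, and by 9 of 9 in rps2a2b, beside 4.14%. The counting interval lay wholly above 2-fold for 7 of 9 in atprmt3 (4.50% of genes) and 9 of 9 in rps2a2b (5.27%). The median log2 ratio to Col of the 9 was 3.87 in atprmt3 and 6.04 in rps2a2b, beside 0.01 and 0.01 over all genes. Large ratios were common among all genes low in Col. A set of 5507 genes had at least 1 count and no more Col counts than the highest of the 9 (41 counts). It was taken without the filter, unlike the shares above. Of the 5507, 36.0% were at least 2-fold higher in atprmt3 and 37.0% in rps2a2b. EM1, LEA and M17 passed the filter only through a mutant, and 5 passed it in Col as well. Because the 9 were chosen with earlier results of these data known, their counts beside these shares are a description and not a test.

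The LEA transcripts also differed between the mutants. A 2-fold higher level in rps2a2b than in atprmt3 was seen for 7 of 9, beside 5.81% of the genes that passed the filter, and the other pair, M17 and M10, fell short. Among genes with no more Col counts than the highest of the 9, again taken without the filter, the share was 21.4%. A 4-fold higher level was seen for 6 of the 9 (1.91% of genes), and 0 of the 9 were 2-fold lower (4.51% of genes). The interval lay wholly above 2-fold for 7 of 9 (1.99% of genes). The median log2 ratio of rps2a2b over atprmt3 was 2.29, against 0.00 over all genes. Between atprmt3 and rps2a2b, genes of 10 to 99 counts had a variance 6.01 times the counting value, which includes differences between the genotypes. If reads came in groups of that size, larger for the summed Col libraries, the interval for EM1 in atprmt3 over Col would begin at 8.88. That for EM6 would begin at 0.350, and those for M10 at 0.0353 in atprmt3 and 0.0882 in rps2a2b. Such intervals over Col would lie wholly above 2-fold for 7 of 9 in atprmt3 and 8 of 9 in rps2a2b. The factor came from genes of 10 to 99 counts over both mutants, and all of the 9 but M10 had more. It was not estimated at their level and may be too small for them.

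**Figure D3:**
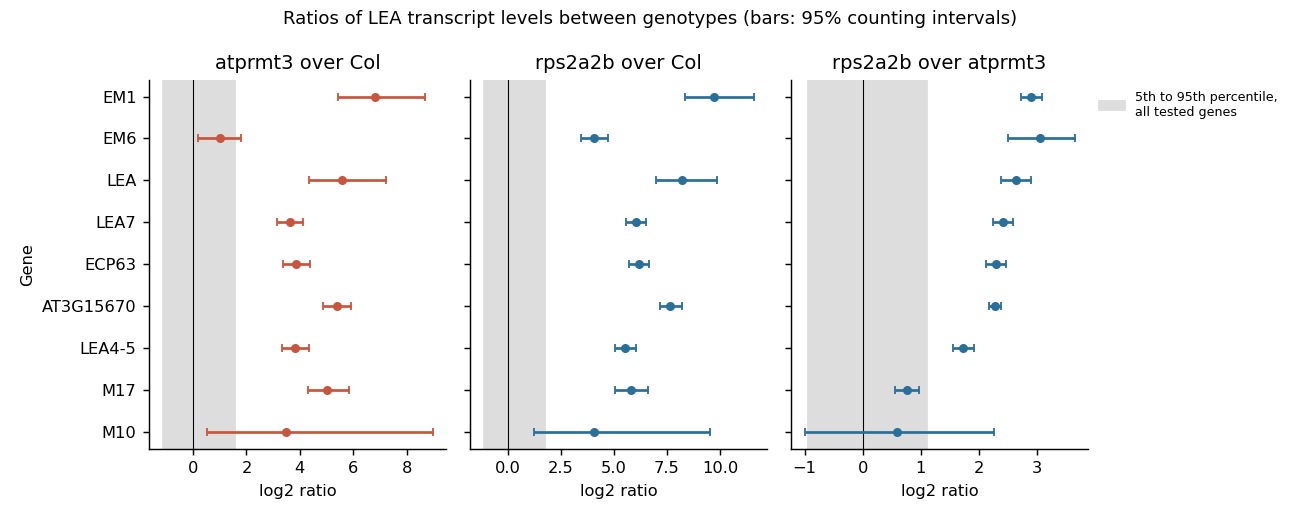
Log2 ratio of each LEA gene in atprmt3 over Col, rps2a2b over Col and rps2a2b over atprmt3, with 95% counting intervals. The grey band spans the 5th to 95th percentile of all tested genes. EM6 lies in the band for atprmt3 over Col, and M17 and M10 lie in it for rps2a2b over atprmt3.

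The make-up of the LEA transcripts also differed between genotypes. AT3G15670 made up 32.3% of the summed LEA counts in atprmt3 and 33.2% in rps2a2b, against 16.3% in Col. EM1 made up 10.6% in atprmt3 and 16.8% in rps2a2b, against 1.98% in Col. EM6 made up 1.17% in atprmt3 and 2.05% in rps2a2b, against 12.4% in Col. M17 made up 4.39% in rps2a2b, against 12.2% in atprmt3, with intervals that do not overlap (4.01 to 4.79% and 11.0 to 13.5%). Per kb of exon, levels ran between 0.616 and 44.7 CPM in atprmt3 and between 0.930 and 216 CPM in rps2a2b, against 0.0550 to 1.501 CPM in Col. The order in atprmt3 began AT3G15670, LEA4-5, LEA7, EM1 and M17, of which LEA4-5 to M17 overlap with their neighbours. In rps2a2b it began AT3G15670, EM1, LEA7 and LEA4-5, and in Col it began LEA7, LEA4-5, EM6 and AT3G15670, where every neighbouring pair overlapped.

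**Figure D4:**
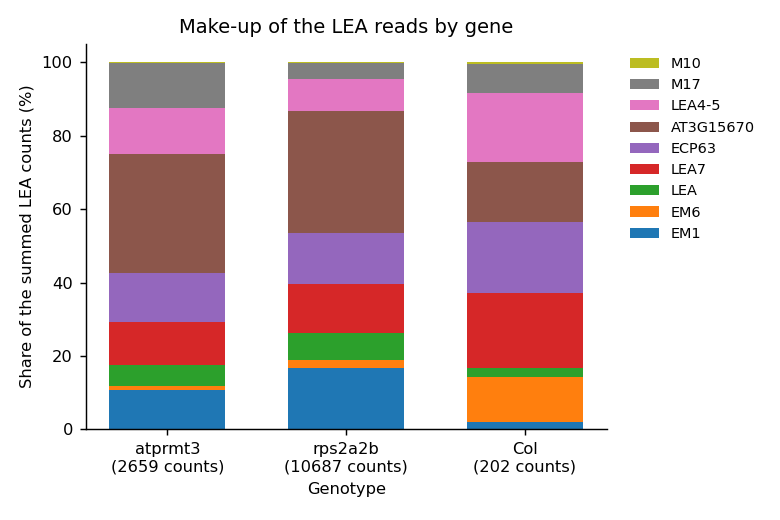
Stacked share of the summed LEA counts (percent, y axis) made up by each of the 9 genes in atprmt3, rps2a2b and Col (x axis, with the summed counts). EM1 and AT3G15670 take larger shares in the mutants than in Col, and EM6 takes a smaller one. No error bars are drawn.

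Outside the 9, 41 further LEA family genes were measured, and 34 of them passed the filter. Levels at or beyond 2-fold above Col were found for 15 in atprmt3 and 19 in rps2a2b, beside 8.96% and 9.97% of all filtered genes. Levels at or beyond 2-fold below Col were found for 2 in atprmt3 and 1 in rps2a2b, beside 6.21% and 6.19%. The median log2 ratio to Col of the 34 was 0.83 in atprmt3 and 1.70 in rps2a2b. AT1G72100 had 107 counts in atprmt3 and 459 in rps2a2b, against 0 in Col. Set against a floor of 3 counts over Col, it was at least 57.1-fold higher in atprmt3 and at least 288-fold higher in rps2a2b. AT4G21020 had 202 and 1025 counts in atprmt3 and rps2a2b, against 5 in Col. The dehydrin AT4G38410 was lower in both, with 3 and 2 counts in atprmt3 and rps2a2b, against 49 in Col. UNE15, the other gene lowest in rps2a2b, had ratios of 0.708 in atprmt3 and 0.536 in rps2a2b. COR15A, a cold-induced chloroplast LEA gene, was 1.77-fold higher in atprmt3 and 1.08-fold higher in rps2a2b, and the drought dehydrin RAB18 had ratios of 0.822 in atprmt3 and 1.55 in rps2a2b. Of the 15 family genes detected at 41 or fewer Col counts, 10 were 2-fold higher in atprmt3 and 13 in rps2a2b. Over all genes at that Col level, taken without the filter, 36.0% and 37.0% were. Of the 21 above that level, 5 were in atprmt3 and 6 in rps2a2b. Among these were AT3G17520, at 6.16-fold in atprmt3 and 28.4-fold in rps2a2b, and DI21, at 2.39-fold in atprmt3 and 3.49-fold in rps2a2b. AT3G02480, at 47 Col counts, was 31.1-fold higher in atprmt3 and 134-fold higher in rps2a2b. LEA18 (47 Col counts) had ratios of 7.94 in atprmt3 and 34.2 in rps2a2b, and AtLEA4-1 (44) of 4.29 and 15.4. These 3 genes lie just above the cut at 41.

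**Figure D5:**
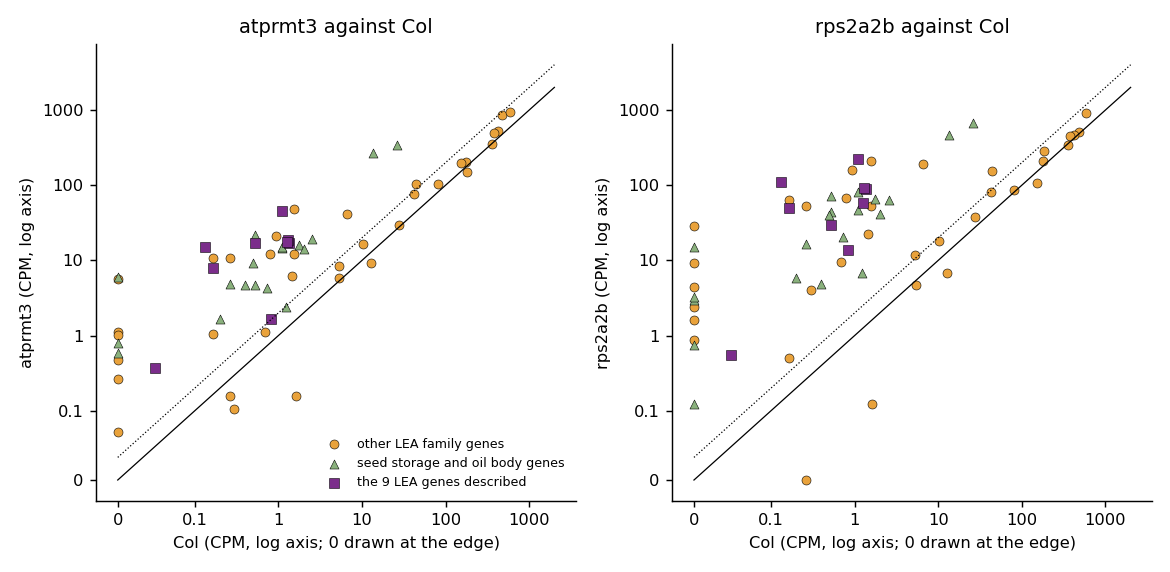
CPM in atprmt3 (left panel) or rps2a2b (right panel) against CPM in Col, on log axes with 0 drawn at the edge, for the 9 LEA genes (squares), the other LEA family genes (circles) and the seed storage and oil body genes (triangles). The solid line marks equal levels and the dotted line a 2-fold higher level in the mutant. Of the 21 family genes above 41 Col counts, 5 in atprmt3 and 6 in rps2a2b lie on or above the dotted line, and the 9 LEA genes lie above the dotted line apart from EM6 in atprmt3.

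Among 17 activators of seed maturation, 13 passed the filter. In atprmt3, ABI3 alone was 2-fold above Col, and HSFA9 and DOG1 were 2-fold below it, 1 and 2 of the 13. In rps2a2b, 3 were above (ABI3, ABI4 and ABI5) and the same 2 were below. HSFA9 had 2 counts in atprmt3 and 4 in rps2a2b, against 19 in Col. Its interval in rps2a2b over Col, 0.0979 to 1.19, includes no change. ABI3 had 58 counts in atprmt3 and 126 in rps2a2b, against 4 over both Col libraries, or 23.2-fold (8.59 to 88.1) and 59.2-fold (22.6 to 221) higher. ABI5 was 1.24-fold higher in atprmt3 (1.01 to 1.53) and 2.12-fold higher in rps2a2b (1.76 to 2.56). ABI4 had 2 counts in atprmt3 and 31 in rps2a2b, against 0 in Col. LEC1 and LEC2, which open the embryo programme, had 0 counts in every library, where a count of 0 allows up to 0.199 CPM. DOG1, the dormancy gene, had 6 and 0 counts in atprmt3 and rps2a2b, against 25 in Col. Of 20 repressors of the seed programme, 19 passed the filter and 0 changed 2-fold in either mutant, with VAL3 at 0.764 in atprmt3 and 1.49 in rps2a2b and FIE at 1.16 and 1.68. Of 18 abscisic acid signalling genes, HAI3 was 2-fold higher in both mutants and AHG1 in rps2a2b, and 0 were 2-fold lower. HAI3 had 11 counts in atprmt3 and 41 in rps2a2b, against 5 in Col. Its interval in atprmt3 over Col was 1.13 to 12.9. AHG1 had 7 counts in atprmt3 and 31 in rps2a2b, against 6 in Col. Of 9 genes of abscisic acid synthesis and breakdown, 8 passed. In each mutant 2 of them were 2-fold higher, NCED9 and CYP707A3 in atprmt3 and NCED9 and CYP707A1 in rps2a2b. NCED9 had 8 counts in atprmt3 and 10 in rps2a2b, against 0 in Col, so its ratio rests on the floor. CYP707A3 stood at 2.01 in atprmt3 (1.42 to 2.86) and CYP707A1 at 2.14 in rps2a2b (1.76 to 2.60). Of all genes that passed the filter, 8.96% were 2-fold higher in atprmt3 and 9.97% in rps2a2b. The signalling genes, at 1 of 18 and 2 of 18, lie near these shares. So do the activators in atprmt3, at 1 of 13, whereas 3 of 13 were higher in rps2a2b. The shares 2-fold lower were 6.21% in atprmt3 and 6.19% in rps2a2b. ABI3 and ABI4 are among the genes with 41 or fewer Col counts. Taken without the filter, 36.0% of those were 2-fold higher in atprmt3 and 37.0% in rps2a2b.

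Seed storage and oil body genes encode storage proteins and proteins of the oil bodies formed at the same stage. The list also holds PER1 and the aquaporin genes TIP3;1 and BETA-TIP. Of 22 measured, 18 passed, and 16 of these were at least 2-fold higher in atprmt3 and 18 in rps2a2b than in Col. The shares over all genes that passed the filter were 8.96% and 9.97%. The summed level of the 22 was 751 CPM in atprmt3 and 1667 CPM in rps2a2b, against 52.2 CPM in Col. Most of each sum came from the cruciferin genes CRA1 and CRU3. CRA1 had 341 CPM in atprmt3 and 670 CPM in rps2a2b, against 26.0 CPM in Col. CRU3 had 270 CPM in atprmt3 and 466 CPM in rps2a2b, against 13.4 CPM in Col. The oleosins differed among themselves. OLEO1 was 41.3-fold higher in atprmt3 and 136-fold higher in rps2a2b, and OLEO4 had ratios of 1.99 in atprmt3, under the line, and 5.64 in rps2a2b. OLEO2 and OLEO3 lay between them, at 7.67-fold and 8.27-fold in atprmt3 and at 25.1-fold and 29.1-fold in rps2a2b. The storage albumin gene SESA2 was 11.7-fold higher in atprmt3 and 12.2-fold higher in rps2a2b. SESA1 had 112 counts in atprmt3 and 243 in rps2a2b, and the cruciferin gene CRU2 had 0 and 48, against 0 in Col for both. By distance over both log2 ratios, the genes most like the median of the 9 (18376 genes compared) were AT4G25580, AT3G19920, AT2G28490, ATPXG2, AT2G15010, SESA5, AT5G44310, CBSX4, AT5G24130 and RTNLB13. Of these 10, 3 were in the lists above and 5 had 0 counts in Col, so that their place rests on a bound.

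Markers of other tissues and stages were set beside these values. Over all genes that passed the filter, 8.96% were 2-fold higher in atprmt3 than in Col and 6.21% lower. In rps2a2b these shares were 9.97% and 6.19%. The 5 seed coat markers were at 0 counts in every library. The 6 germinating-seed markers summed to 518 CPM in atprmt3 and 994 CPM in rps2a2b, against 535 CPM in Col, and PCK1 and ICL made up most of each sum. In atprmt3, 1 of the 6 was 2-fold higher and 2 were 2-fold lower, and in rps2a2b 4 were higher and 0 lower. The isocitrate lyase gene ICL had ratios of 0.425 in atprmt3 and 2.26 in rps2a2b, and the malate synthase gene MLS had ratios of 2.21 in atprmt3 and 11.0 in rps2a2b. PCK1 had ratios of 1.19 in atprmt3 and 1.501 in rps2a2b, GA3OX1 of 1.49 and 2.14, and GA3OX2, another gibberellin synthesis gene, of 0.168 and 0.546. EXPA2 had 0 counts in atprmt3 and 17 in rps2a2b, against 0 in Col. The 5 green leaf markers summed to 36646 CPM in atprmt3 and 28701 CPM in rps2a2b, against 49700 CPM in Col, and 2 of the 5, LHB1B2 and LHCA1, were 2-fold lower in rps2a2b. RBCS1A had ratios of 1.05 in atprmt3 and 0.763 in rps2a2b, and RBCS2B of 1.26 and 1.03. The 5 root markers summed to 93.8 CPM in atprmt3 and 98.2 CPM in rps2a2b, against 113 CPM in Col, most of it from PHT1;1. GL2 was 2-fold lower in atprmt3, at 0.422 (0.359 to 0.493), and had a ratio of 0.568 in rps2a2b, and 0 of the 5 were 2-fold higher in either mutant. EXPA7 had ratios of 1.75 in atprmt3 and 1.61 in rps2a2b, and MYB36 of 1.10 and 1.83. The part of these differences in the LEA values was not tested. Of the genes flanking the 9, 12 that are not LEA genes of the set passed the filter. PP2C5, next to EM6, was higher than Col by 2.67-fold in atprmt3 (0.519 to 17.2) and 8.77-fold in rps2a2b (2.45 to 47.6), on 3 Col counts. AT2G36630, next to ECP63, had ratios of 0.213 in atprmt3 and 0.351 in rps2a2b, and the other 10 lay within 2-fold in both.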

How the data were processed

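RNA was sequenced from strand-specific libraries, 4 in all. Per the submitters' processing notes, TopHat2, HTSeq and edgeR were used with TAIR10; versions and the strand setting of the counting are not given in the sources used here. The authors deposited raw read counts per gene for each library. Rows that name no gene stayed out of totals: reads without a gene were 1.37 to 1.80% of reads, ambiguous reads 2.25 to 3.26% and reads aligned to several places 6.74 to 7.16%. Of the identifiers, 33056 matched RefSeq TAIR10.1, which gave symbols, exon lengths and promoters.

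Counts were scaled with edgeR 4.0.16 (trimmed mean of M-values), and genes passed edgeR's filter with the CPM equivalent of 10 counts in a library and 15 counts in all. With 1 sample per genotype no test was run, and a gene was called at a 2-fold ratio. Ratios carry exact conditional 95% intervals, and shares carry exact binomial ones. A group at 0 was set to a floor of 3 counts. DESeq2 1.42.0 size factors, upper quartile, total counts, other filters and leaving out a Col library were alternatives. The procedure was run on simulated counts that held counting error only, which is what the intervals assume. Changed genes were drawn above a minimum Col count that EM1, LEA, M17 and M10 do not reach. The simulation therefore cannot speak for those genes or for spread between samples. The LEA genes and the other lists, drawn from general knowledge, were chosen with earlier results of these data known. The naming rule took all 9 LEA genes, the 10 nearest genes, and from each list the 2 highest and 2 lowest in rps2a2b over Col and those with 0 counts in Col, of which not all are described. COR15A, RAB18, ABI5, ICL, GA3OX1, OLEO2, OLEO3, CRA1, CRU3, DI21, AT3G17520 and the flanking genes were named after their values were seen. So were AT3G02480, LEA18, AtLEA4-1, PER1, TIP3;1 and BETA-TIP.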

Additional observations from a re-analysis of the deposited data

How the results depend on the processing

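No ratio of a single LEA gene left its counting interval or turned direction in 160 alternative values. Some of these could not differ: leaving out a Col library does not touch rps2a2b over atprmt3. Other scaling factors move every gene of a contrast by the same amount. M10 without Col replicate 2 is not among the 160. The background changed with the genes included. Among genes with at least 100 counts, 4.16% were 2-fold higher in atprmt3 than in Col, 4.96% in rps2a2b than in Col, and 1.93% in rps2a2b than in atprmt3. Without the filter, among genes with no more Col counts than the highest LEA gene, these shares were 36.0%, 37.0% and 21.4%. That set was chosen after seeing the data. The number of LEA genes 2-fold higher than Col was 7 to 9 in atprmt3 and 8 to 9 in rps2a2b. EM6 lay near the line in atprmt3. M10, with main ratios of 11.2 in atprmt3 and 16.9 in rps2a2b, dropped out under some settings through its wide interval or the floor. Between the mutants the number was 7, or 6 at a 4-fold threshold. Scaling by total counts put the median log2 ratio of all genes at 0.14 in rps2a2b over Col, and that of the LEA genes at 6.17. Leaving out a Col library moved the median log2 ratio between 3.76 and 4.25 in atprmt3 and between 6.01 and 6.20 in rps2a2b. EM1, with 1 and 3 Col counts, gave log2 ratios of 6.23 in atprmt3 and 9.13 in rps2a2b without Col replicate 1 and 7.82 and 10.72 without Col replicate 2. M10 gave 2.48 and 3.08 without Col replicate 1 and had 0 counts in Col without Col replicate 2, where it was set to the floor of 3 counts in the medians and counts of genes, and no ratio is given. No paired analysis was possible because each mutant has 1 library, so the groups share fewer than 2 replicate numbers. Each ratio to Col of EM1, LEA and M10 rests on 5 or fewer Col counts.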
